A study of Mus musculus with 24 samples.

Results

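The 10 genes described here make, break down or sense the prostaglandins and leukotrienes, the lipid mediators that cells derive from arachidonic acid. They were chosen by name, as rows of the deposited tables whose symbol equals a member and whose gene lies on a numbered chromosome, and 10 of 10 were found among 47372 genes. Bone marrow cells of mice aged 8 to 12 weeks (strain label C57BL/6J for every library) were grown into macrophages in DMEM with 20% FBS and 30% L929 conditioned medium, which was renewed on day 4. Cells of 3 mice lacking both LXRα and LXRβ (DKO) and of 3 LXR-positive mice were each given 4 treatments, so that the 24 libraries form 8 groups of 3. KLA (Kdo2-lipid A, a purified endotoxin that activates TLR4, at 100 ng/ml), the synthetic LXR agonist GW3965 (1 µM) or vehicle was given on day 5 for 17 hours. The remaining groups received AcLDL (acetylated LDL, a modified lipoprotein that loads macrophages with cholesterol) at 50 µg/ml, for a time that the labels do not state. The DKO groups were thus DKO with KLA, DKO with GW3965, DKO with AcLDL and DKO with vehicle, and the LXR-positive groups had the same 4 treatments. The labels name no Cre or promoter for the knockout and do not say whether the LXR-positive mice were littermates of the DKO mice.

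Prostaglandin synthesis begins when a cyclooxygenase, encoded by Ptgs1 (mostly constitutive) or Ptgs2 (mostly inducible), turns arachidonic acid into prostaglandin H2. Terminal synthases then make single products from it: Ptges, the microsomal prostaglandin E synthase, makes prostaglandin E2, and Hpgds, the haematopoietic prostaglandin D synthase, makes prostaglandin D2. Hpgd encodes the dehydrogenase that starts the inactivation of prostaglandins, and Ptger2 and Ptger4 encode the EP2 and EP4 receptors, through which prostaglandin E2 raises cyclic AMP. In the leukotriene branch, Alox5 is the lipoxygenase that makes leukotriene A4 with the help of the membrane protein Alox5ap, and Lta4h turns leukotriene A4 into the neutrophil attractant leukotriene B4. Endotoxin is known to induce Ptgs2 and Ptges together in macrophages.

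In the GRCm38 build the deposited start and end of all 10 genes were the same as in GENCODE M21. Ptgs1 spans chr2:36230426-36252272, Ptgs2 spans chr1:150100031-150108227 and Ptges spans chr2:30889471-30929863. Hpgds lies at chr6:65117293-65144908 and Hpgd at chr8:56294585-56321043. Ptger2 lies at chr14:44988195-45003820 and Ptger4 at chr15:5206661-5244187. Of the leukotriene genes, Alox5 spans chr6:116410077-116461178, Alox5ap spans chr5:149264767-149288153 and Lta4h spans chr10:93453411-93484875. All are protein-coding, and each value below is a total for the gene. On the opposite strand, annotated exons overlap those of Ptgs1 (148 bases, Gm43621), Ptger2 (246 bases, Gm17173), Alox5ap (189 bases, Gm19719) and Ptger4 (82 bases, Ttc33, and 1015 bases, Gm15937). Whether counting used the strand is not stated, so values of these 4 genes may include reads of the partner.

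The 4 members with the largest differences between KLA and vehicle in both genotypes were Ptges, Hpgd, Ptgs2 and Ptgs1, and their promoter windows are printed to show what sequence lies at the start of genes that moved in opposite directions. Each window is 300 bases from RefSeq (GRCm38.p6), 250 bases before and 50 after the annotated start, 5′ to 3′ on the gene's own strand, with matches to any of 8 motifs in capitals. The windows are chr1:150099781-150100080 (plus strand) for Ptgs2, chr2:30903248-30903547 (minus strand) for Ptges, chr8:56294302-56294601 (plus strand) for Hpgd and chr2:36230176-36230475 (plus strand) for Ptgs1.
Ptgs2: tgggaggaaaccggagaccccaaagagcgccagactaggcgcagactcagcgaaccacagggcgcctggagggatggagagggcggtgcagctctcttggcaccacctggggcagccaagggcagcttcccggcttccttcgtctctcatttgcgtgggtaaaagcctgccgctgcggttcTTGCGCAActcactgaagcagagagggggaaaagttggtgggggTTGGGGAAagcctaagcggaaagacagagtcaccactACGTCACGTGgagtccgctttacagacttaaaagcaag
Ptges: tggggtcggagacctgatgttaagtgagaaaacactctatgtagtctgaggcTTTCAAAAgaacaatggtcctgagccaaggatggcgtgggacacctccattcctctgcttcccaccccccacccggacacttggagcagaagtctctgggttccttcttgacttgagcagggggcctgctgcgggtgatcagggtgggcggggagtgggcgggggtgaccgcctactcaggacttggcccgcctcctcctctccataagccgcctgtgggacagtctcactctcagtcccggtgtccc
Hpgd: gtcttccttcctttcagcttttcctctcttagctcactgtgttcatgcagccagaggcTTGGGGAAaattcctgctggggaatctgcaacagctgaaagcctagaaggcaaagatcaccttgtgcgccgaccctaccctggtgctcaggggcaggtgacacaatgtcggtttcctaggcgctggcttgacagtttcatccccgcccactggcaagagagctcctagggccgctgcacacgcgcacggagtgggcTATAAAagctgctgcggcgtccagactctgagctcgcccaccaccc
Ptgs1: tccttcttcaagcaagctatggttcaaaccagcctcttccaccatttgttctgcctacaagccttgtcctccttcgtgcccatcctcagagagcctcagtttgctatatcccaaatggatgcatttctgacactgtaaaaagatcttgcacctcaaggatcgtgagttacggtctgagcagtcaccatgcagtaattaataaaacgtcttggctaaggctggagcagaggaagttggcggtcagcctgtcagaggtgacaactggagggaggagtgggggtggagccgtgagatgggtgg
The Ptgs2 window holds 2 matches to the C/EBP-like pattern TTNCNNAA, whose first bases lie 69 and 25 bases before the start, and a short CRE site (ACGTCA) beginning 13 bases into the gene that overlaps an E-box (CACGTG) beginning 17 bases into it. The Ptges window holds 1 C/EBP-like match, 198 bases before the start. The Hpgd window holds 1 C/EBP-like match, 192 bases before the start, and a TATA box (TATAAA) at base 5 after the RefSeq start. The Ptgs1 window held none of the 8 motifs. RefSeq starts can differ from the starts in the deposited tables. For Ptges the deposited gene begins 26566 bases farther upstream. For Hpgd it begins 33 bases farther downstream, so the TATA box lies upstream of the deposited Hpgd start.

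Both strands of all 32851 RefSeq windows were searched. TTNCNNAA occurred in 40.684% of them and in 5 of the 9 members that have a window (Alox5ap has none in the table). TATAAA occurred in 13.616%, ACGTCA in 7.513% and CACGTG in 7.15% of windows, with 1 member each. The AP-1 pattern TGANTCA (7.808% of windows), the full CRE TGACGTCA (1.79%), an NF-kB consensus (4.505%) and a strict LXR direct repeat (0.046%) were in none of the 9 member windows. These matches describe letters within the windows. The windows of Ptger4 (25), Ptgs2 and Lta4h (16 each), Hpgd (12) and Ptges (10) held more CG dinucleotides than the median window, with 7. Those of Alox5 (7), Ptgs1 (6), Hpgds (5) and Ptger2 (3) did not.

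Total reads per library, recovered from the deposited normalized counts, ranged over 9705391 to 27189081 in DKO libraries and 6448579 to 17348717 in LXR-positive libraries, so depth and genotype cannot be fully told apart. The targeted gene Nr1h2 (LXRβ) had 275 to 399 normalized counts in the 12 DKO libraries, against 438 to 821 in the 12 LXR-positive libraries. Nr1h3 (LXRα) had 123 to 751 in DKO and 114 to 1267 in LXR-positive libraries. Both are totals over the whole gene, and the labels do not name the exons removed, so they check the genotype labels only in part. All 8 macrophage markers (Adgre1, Csf1r, Cd68, Itgam, Mertk, Fcgr1, Cd14 and Lyz2) were detected in every library. Summed lymphocyte markers were higher in DKO libraries in all 4 treatments, at 224 to 995 normalized counts against 24.3 to 51.3 in LXR-positive libraries. Most of that sum was 1 gene, the immunoglobulin light chain Igkc, whose group means were 346 to 687 in DKO cells against 4.01 to 5.15 in LXR-positive cells. The other 6 lymphocyte markers summed to 41.0 to 91.2 against 15.0 to 45.2, and did not overlap between genotypes within any of the 4 treatments. In bulk RNA, fewer cells of a type and less RNA per cell cannot be told apart.

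**Figure D1:**
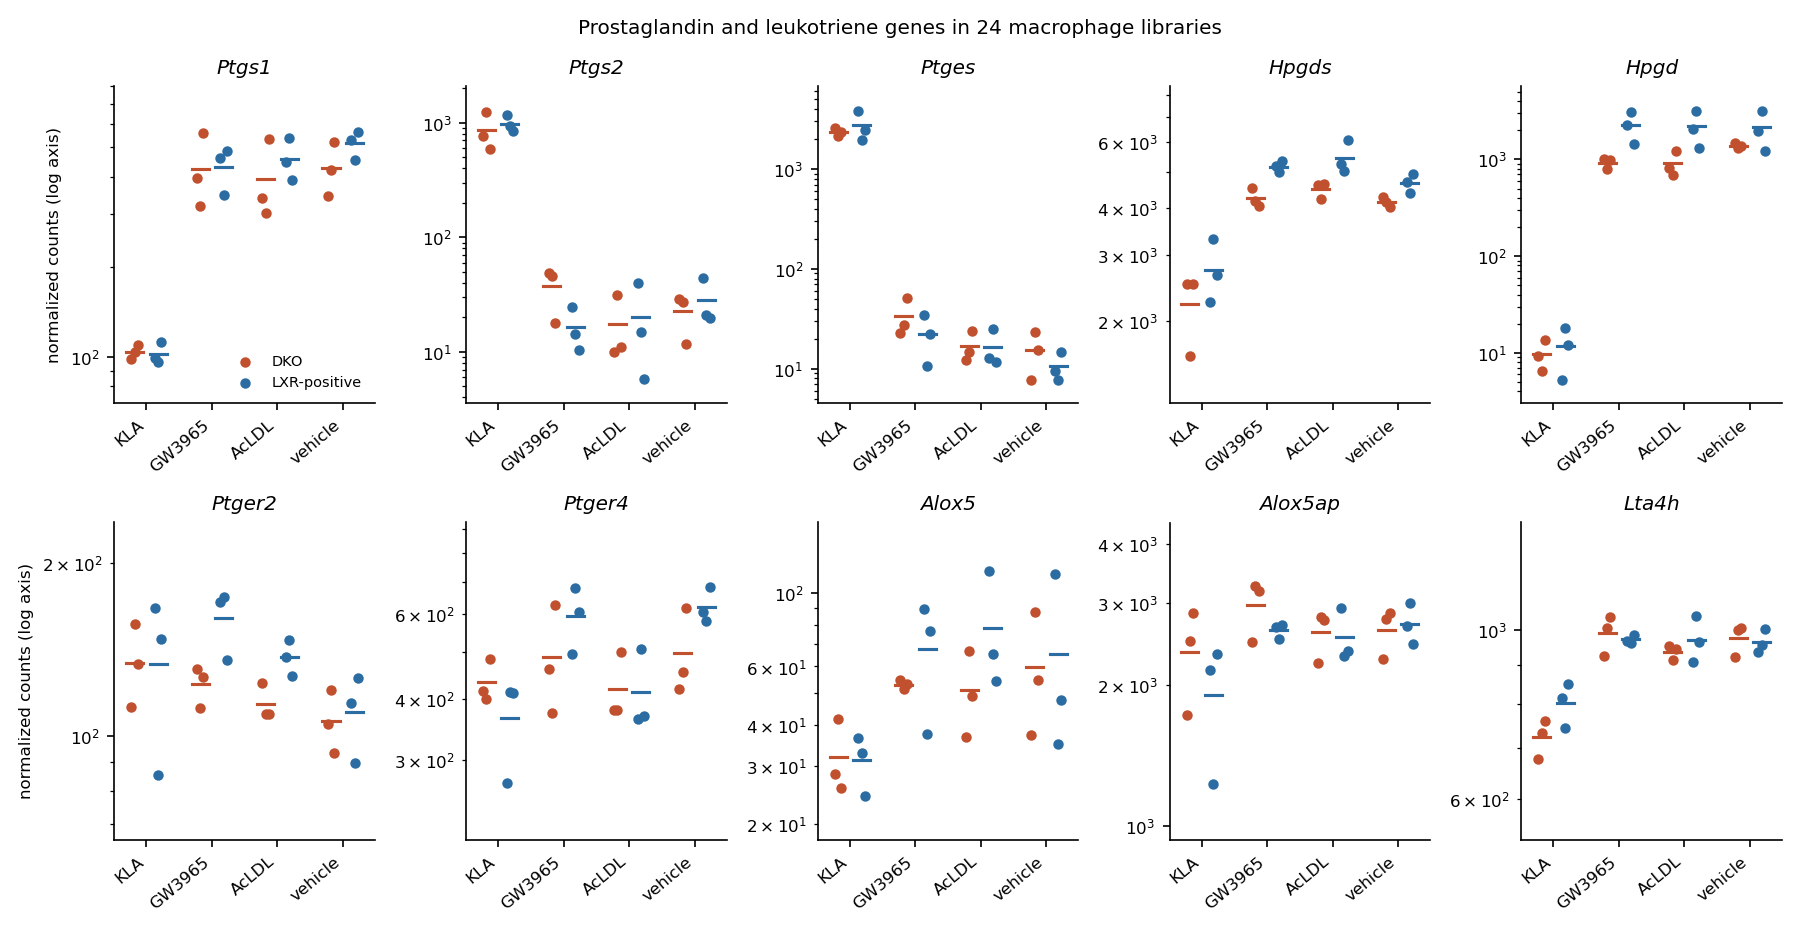
Normalized counts (log axis) of the 10 genes in each of 24 libraries, with DKO left of LXR-positive within each treatment; points are libraries and short lines are group means of 3. Ptgs2 and Ptges are high, and Ptgs1, Hpgds and Hpgd low, in the 6 libraries given KLA.

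KLA against vehicle asks how endotoxin moves the pathway, and it was the treatment in which members changed. In DKO macrophages 6 of 10 members passed an adjusted p of 0.05 in limma (2 higher, 4 lower), where 25.2% of 15957 tested genes did (14.0% higher, 11.1% lower). In LXR-positive macrophages 7 of 10 passed (2 higher, 5 lower), where 28.6% of genes did (16.2% higher, 12.4% lower). All 10 members passed the filter on low values, which asked for at least 10 normalized counts in at least 3 of 12 libraries. In both genotypes the inducible cyclooxygenase and the prostaglandin E synthase rose, while the constitutive cyclooxygenase, the prostaglandin D synthase, the prostaglandin dehydrogenase and Lta4h fell. The medians over the 10 members were log2 differences of -0.31 in DKO and -0.67 in LXR-positive cells, against -0.004 and -0.003 over all genes tested. The deposited unit is a normalized count, a gene's reads divided by a size factor of its library, and log2 differences are of the value plus 1, which understates the change of low genes.

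Ptges, the prostaglandin E synthase, had the largest rise. It had 2569, 2131 and 2357 normalized counts in DKO macrophages with KLA, against 7.74, 23.1 and 15.3 with vehicle. In LXR-positive macrophages it had 3828, 1965 and 2460.5 with KLA, against 9.52, 7.78 and 14.7 with vehicle. All 6 libraries with KLA thus lay far above the other 18, of which the highest had 50.7. On the log2 scale it rose by 7.28 ± 0.35 (SE) in DKO cells (adjusted p = 1.71e-07, limma) and 7.87 ± 0.35 in LXR-positive cells (adjusted p = 1.07e-07, limma). The vehicle levels rest on few reads, since the 18 libraries without KLA held 6 to 40 Ptges reads each, so the size of the fold is imprecise.

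Ptgs2, the inducible cyclooxygenase, had 767, 1229.8 and 590.1 normalized counts in DKO macrophages with KLA, against 29.0, 27.3 and 11.7 with vehicle. LXR-positive macrophages had 1162, 927 and 849 with KLA, against 44.0, 21.0 and 19.6 with vehicle. The KLA and vehicle libraries did not overlap in either genotype, a separation seen in 23.6% of genes (higher) in DKO and 21.6% in LXR-positive cells. Ptgs2 rose by 5.22 ± 0.38 on the log2 scale in DKO cells (adjusted p = 2.05e-06, limma) and 5.15 ± 0.38 in LXR-positive cells (adjusted p = 2.05e-06, limma), which is 37.3-fold and 35.6-fold.

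Ptgs1, the constitutive cyclooxygenase, moved the other way. Its values were 98.1, 104 and 109.6 normalized counts in DKO cells with KLA, against 344, 421 and 521 with vehicle. LXR-positive cells had 99.2, 95.8 and 112 with KLA, against 529, 454.5 and 565 with vehicle. The 6 KLA libraries lay close together and below all other 18 libraries, whose lowest value was 303. Non-overlap with KLA below vehicle was seen in 21.5% of genes in DKO and 18.0% in LXR-positive cells. It fell by 2.02 ± 0.16 on the log2 scale in DKO cells (adjusted p = 3.34e-06, limma) and by 2.32 ± 0.16 in LXR-positive cells (adjusted p = 1.07e-06, limma). Per kilobase of exon, Ptgs2 made up 86.6% ± 4.47 (SD, n = 3) of the summed Ptgs1 and Ptgs2 level in DKO cells with KLA, against 4.59% ± 2.46 with vehicle. The share in LXR-positive cells was 88.8% ± 2.20 with KLA, against 4.40% ± 1.95 with vehicle. The lowest share in a KLA library was 82.0% and the highest in a vehicle library 6.68%, so most cyclooxygenase transcript was Ptgs2 with KLA and Ptgs1 with vehicle in each of the 6 mice.

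Hpgds, the prostaglandin D synthase, was the most abundant member by normalized count in the vehicle groups and fell by less. With KLA, DKO cells had 2517.5, 1618 and 2516 normalized counts, against 4276, 4159.6 and 4035 with vehicle. LXR-positive cells had 2249, 3306.5 and 2652 with KLA, against 4698, 4387 and 4942.5 with vehicle. The groups did not overlap in either genotype. The fall was 0.94 ± 0.17 on the log2 scale in DKO cells (log2 difference -0.94, adjusted p = 0.0019, limma) and 0.79 ± 0.17 in LXR-positive cells (log2 difference -0.79, adjusted p = 0.00488, limma). Ptgds, the other prostaglandin D synthase, was at 0 in 23 of 24 libraries.

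Hpgd, the prostaglandin-inactivating dehydrogenase, fell almost to the detection limit. With KLA it had 9.25, 6.47 and 13.5 normalized counts in DKO cells, against 1467, 1315 and 1388 with vehicle. LXR-positive cells had 5.22, 18.0 and 12.1 with KLA, against 1975, 3203 and 1235 with vehicle. These KLA values are 4 to 22 reads a library, while the lowest library without KLA held 776 reads. Its log2 difference was -7.07 ± 0.41 in DKO cells (adjusted p = 3.76e-07, limma) and -7.42 ± 0.41 in LXR-positive cells (adjusted p = 2.21e-07, limma). By level per kilobase of exon, Hpgd ranked 2 of the 10 members in vehicle groups of both genotypes and 10 of 10 with KLA, while Ptges ranked 10 with vehicle and 2 with KLA.

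**Figure D2:**
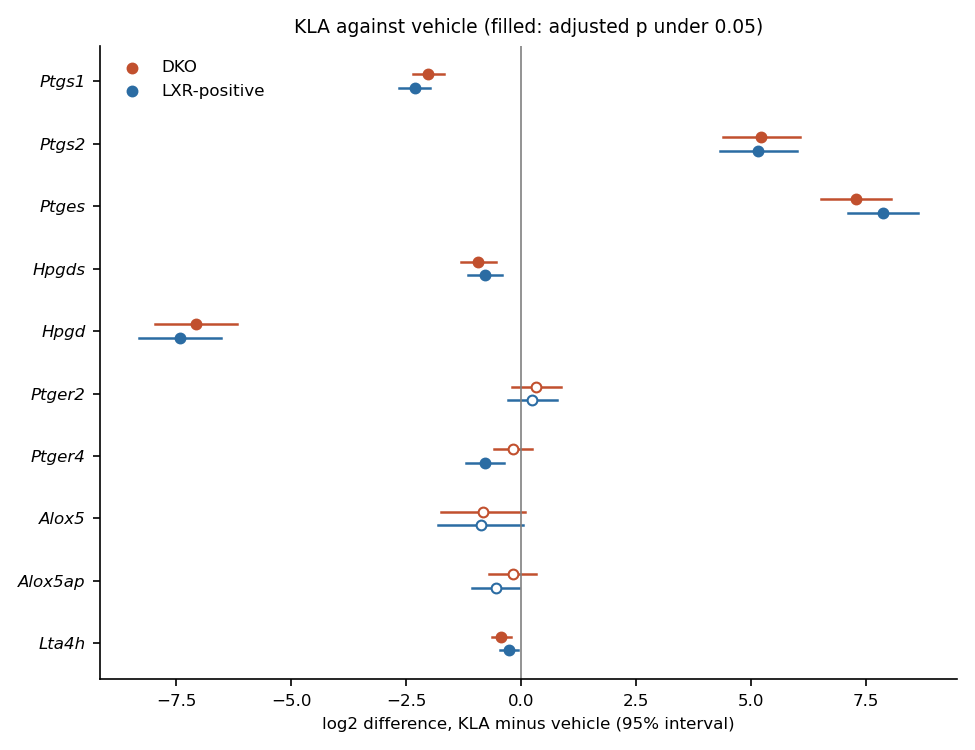
Log2 differences of KLA minus vehicle (x axis) for the 10 genes, DKO above LXR-positive, with 95% intervals; filled points passed an adjusted p of 0.05. Ptgs2 and Ptges lie to the right and Hpgd and Ptgs1 to the left in both genotypes, with overlapping intervals between genotypes.

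Of the prostaglandin E2 receptors, Ptger4 fell in LXR-positive cells and Ptger2 passed in neither genotype. Ptger4 (EP4) had 416, 400.4 and 484 normalized counts in DKO cells with KLA, against 419.9, 455 and 616 with vehicle, so the groups overlapped. In LXR-positive cells it had 269, 415 and 411 with KLA, against 604, 579.8 and 681 with vehicle, and here the groups did not overlap. The log2 difference was -0.18 ± 0.19 in DKO cells (adjusted p = 0.523, limma) and -0.79 ± 0.19 in LXR-positive cells (adjusted p = 0.00734, limma). This contrast between genotypes was not itself past the threshold: the difference of the KLA responses was 0.61 ± 0.26 on the log2 scale (unadjusted p = 0.0395, adjusted p = 0.863, limma). Ptger2 (EP2) had 112, 156 and 133 in DKO cells with KLA, against 105, 119.9 and 93.3 with vehicle. LXR-positive cells had 167, 85.4 and 147 with KLA, against 114, 89.5 and 126 with vehicle. Ptger2 groups overlapped in both genotypes and neither difference passed the test (95% intervals of the log2 difference -0.20 to 0.86 in DKO and -0.30 to 0.77 in LXR-positive cells).

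Of the 3 leukotriene genes only Lta4h was past the threshold with KLA, with a small change. Lta4h had 678, 732 and 759.7 normalized counts in DKO cells with KLA, against 922, 1000 and 1007 with vehicle. In LXR-positive cells it had 814, 744 and 850.0 with KLA, against 936, 956 and 1004 with vehicle. The groups did not overlap in either genotype. The log2 difference was -0.43 ± 0.09 in DKO cells (adjusted p = 0.00508, limma) and -0.27 ± 0.09 in LXR-positive cells (adjusted p = 0.04998, limma). The LXR-positive call was at the threshold: it was lost with the mouse as a block (adjusted p = 0.0626, limma), with a pseudocount of 8 (0.0502), without the filter (0.0977) and on leaving out any of the 12 libraries (0.0543 to 0.135), and kept by edgeR (0.0459) and DESeq2 (0.0108).

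Alox5, the lipoxygenase, had 28.4, 41.6 and 25.7 normalized counts in DKO cells with KLA, against 37.2, 87.8 and 54.6 with vehicle. LXR-positive cells had 36.5, 32.9 and 24.3 with KLA, against 114, 35.0 and 47.7 with vehicle. The groups overlapped in both genotypes, and log2 differences of -0.83 ± 0.42 (DKO, adjusted p = 0.178, limma) and -0.88 ± 0.42 (LXR-positive, adjusted p = 0.142, limma) did not pass. The KLA libraries held 16 to 45 Alox5 reads each, the vehicle values spread widely between mice, and Alox5 was lower with KLA than with vehicle in each of the 6 mice. Alox5ap, its membrane partner and the member with the highest level per kilobase of exon in all vehicle and KLA groups, had 1722, 2479 and 2852 in DKO cells with KLA, against 2267, 2765 and 2848 with vehicle. LXR-positive cells had 2149, 1226.5 and 2333 with KLA, against 2675.5, 2997 and 2441 with vehicle, and these did not overlap. Its log2 differences were -0.18 ± 0.24 (DKO, adjusted p = 0.62, limma) and -0.56 ± 0.24 (LXR-positive, adjusted p = 0.0989, limma). The LXR-positive value passed in a fit over all 24 libraries (adjusted p = 0.04, limma). It did not pass in edgeR (adjusted p = 0.123), in DESeq2 (0.0768) or with the mouse as a block (0.0777, limma). Nor did it pass on leaving out any library (adjusted p = 0.0545 to 0.3285, limma).

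Leukotriene enzymes are also expressed by neutrophils, whose summed markers were lower with KLA in LXR-positive cells and overlapped in DKO cells. The 10 neutrophil markers summed to 3318 to 7268 normalized counts in DKO cells with KLA, against 6237 to 8898 with vehicle. They summed to 2000.0 to 2627 in LXR-positive cells with KLA, against 4226 to 4649 with vehicle. Without S100a9 the DKO groups did not overlap, since the other 9 markers summed to 1173 to 2399 with KLA, against 3030 to 4654 with vehicle. S100a9 itself overlapped in DKO cells, at 2145 to 4868 with KLA, against 3207 to 4244 with vehicle. The granule gene Mpo had 20.6 to 31.4 in DKO cells with KLA, against 386 to 598 with vehicle, and 6.52 to 12.0 in LXR-positive cells with KLA, against 151 to 218 with vehicle. Ly6g was at 0 in 6 of 24 libraries and Prtn3 in 1. Markers of mast cells, basophils and eosinophils, which also use this branch, summed to 55.1 to 91.5 in DKO cells with KLA, against 113 to 137 with vehicle, and to 39.1 to 52.4 in LXR-positive cells with KLA, against 50.0 to 110.0 with vehicle. The mast cell tryptases Tpsb2 and Tpsab1 were at 0 in all 24 libraries. The part of these cells in the leukotriene gene results was not tested.

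The difference between genotypes in the KLA response did not pass for any member. Across all genes 11 of 15957 (0.0689%) passed, and for the 10 members the lowest adjusted p was 0.863, that of Ptger4 (limma). edgeR and DESeq2 also called 0 members, and 1 member had an unadjusted p under 0.05 (5.36% of genes). The 95% intervals of the log2 difference in response were -1.12 to 1.25 for Ptgs2, -1.66 to 0.48 for Ptges and -0.90 to 1.61 for Hpgd, so genotype effects of up to about those sizes were not resolvable. In the authors' deposited table for KLA, Ptger4 had the lowest adjusted p-value of the 10, at 0.812. Direct comparison of DKO with LXR-positive cells under KLA also gave 0 of 10 (limma), where 6.87% of genes passed. There 0 members had an unadjusted p under 0.05 (24.1% of genes), and edgeR and DESeq2 called 0.

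GW3965 and AcLDL were compared with vehicle to see whether LXR ligand or cholesterol loading moves the pathway, and of 40 tests of members (10 genes, 2 treatments, 2 genotypes) 0 passed in limma. Background shares were also low: 0.00621% of genes with GW3965 in DKO cells and 0.267% in LXR-positive cells, and 0.125% with AcLDL in DKO cells and 0.225% in LXR-positive cells. edgeR and DESeq2 called 0 members as well. At an unadjusted p under 0.05 there was 1 member for GW3965 in each genotype (5.83% of all genes in DKO and 6.13% in LXR-positive cells), 0 for AcLDL in DKO cells (6.26%) and 2 for AcLDL in LXR-positive cells (12.3%). The interactions gave 0 of 10 members for GW3965 (0.118% of genes) and for AcLDL (0.0250%), with 0 members at an unadjusted p under 0.05 (4.67% and 3.39% of genes) and 0 by edgeR and DESeq2. The largest of these interactions was that of Ptgs2 with GW3965, at a log2 difference in response of 1.40 (95% interval -0.14 to 2.95, adjusted p = 0.992, limma; 0.498 with the mouse as a block). Within mice its log2 ratios of GW3965 to vehicle were 0.72, 0.72 and 0.56 in DKO cells, against -0.83, -0.53 and -0.86 in LXR-positive cells. These rest on few Ptgs2 reads. LXR-positive libraries held 7 to 12 with GW3965 and 16 to 37 with vehicle, and DKO libraries 14 to 73 and 26 to 60. GW3965 and vehicle values of Ptgs2 overlapped in both genotypes.

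The closest to the threshold was Ptger4 with AcLDL in LXR-positive cells, at 364, 507.5 and 369.6 normalized counts, against 604, 579.8 and 681 with vehicle. The groups did not overlap, as for 9.30% of genes in that direction, and the log2 difference was -0.60 ± 0.18 (unadjusted p = 0.0054, adjusted p = 0.21, limma). Ptger2 with GW3965 in LXR-positive cells had 171, 175 and 136, against 114, 89.5 and 126 with vehicle. These did not overlap either, as for 5.22% of genes in that direction, with a log2 difference of 0.55 ± 0.17 (unadjusted p = 0.00823, adjusted p = 0.521, limma). In DKO cells Ptger2 had 131, 112 and 127 with GW3965, against 105, 119.9 and 93.3 with vehicle, and the groups overlapped. Ptges was at 22.6, 27.2 and 50.7 in DKO cells with GW3965, against 7.74, 23.1 and 15.3 with vehicle, an overlap with a log2 difference of 1.10 ± 0.50 (adjusted p = 0.854, limma). For Lta4h the intervals were narrow, from -0.16 to 0.20 with GW3965 in DKO cells and from -0.17 to 0.19 in LXR-positive cells on the log2 scale.

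**Figure D3:**
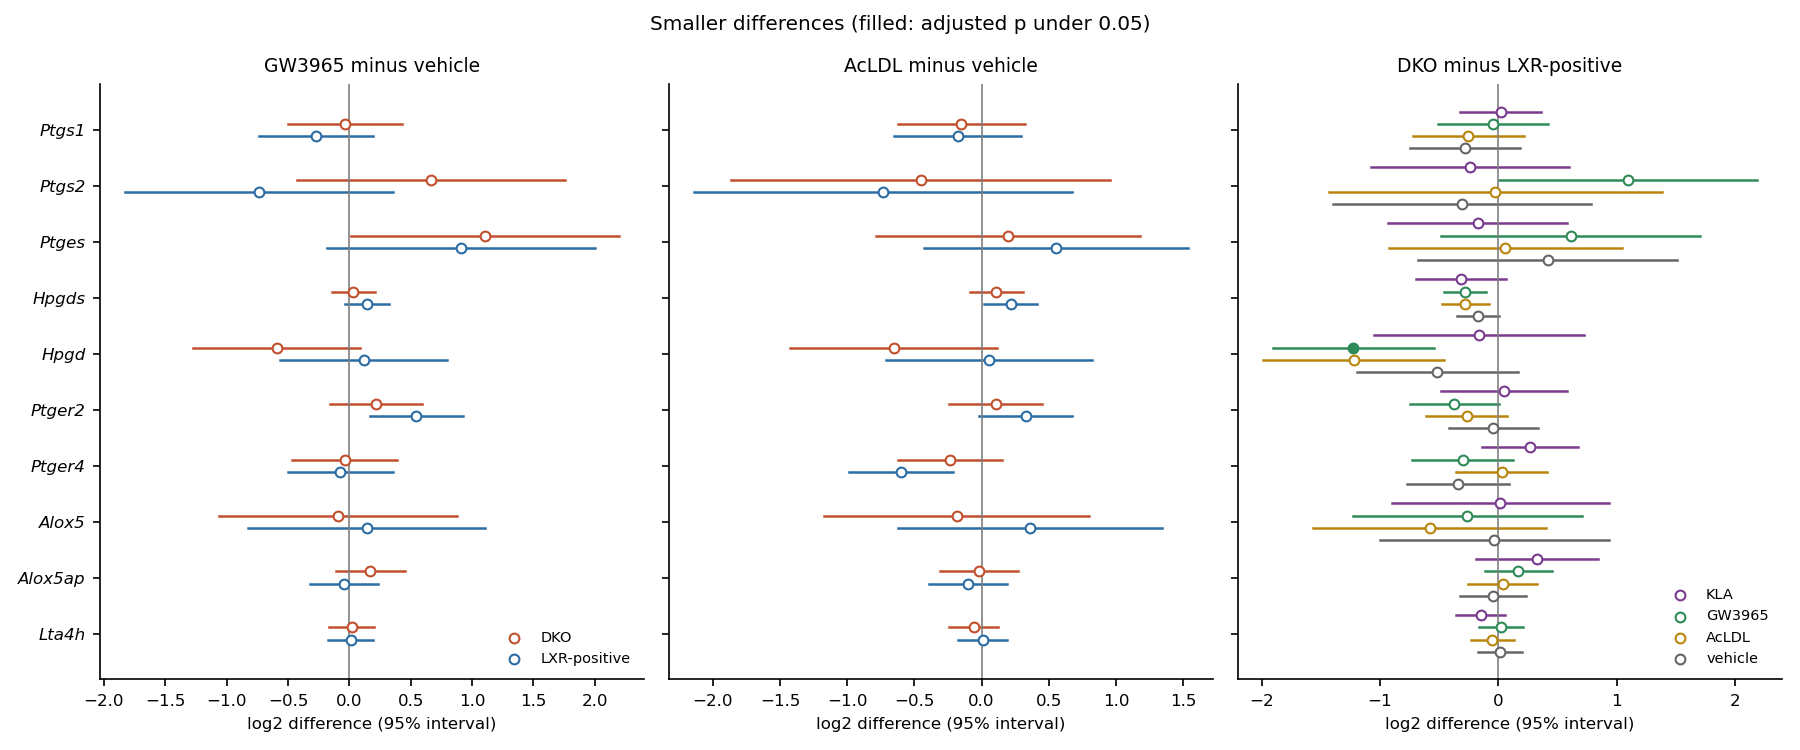
Log2 differences with 95% intervals for GW3965 minus vehicle, AcLDL minus vehicle and DKO minus LXR-positive within each treatment; filled points passed an adjusted p of 0.05. Hpgd in DKO against LXR-positive cells with GW3965 is the only filled point, at -1.22.

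Between genotypes, Hpgd was lower in DKO macrophages given GW3965. It had 1002, 793 and 983 normalized counts in DKO cells with GW3965, against 2263, 3089.9 and 1428 in LXR-positive cells. The groups did not overlap, a separation in this direction seen in 15.6% of genes. The log2 difference was -1.22 ± 0.31 (adjusted p = 0.0328, limma; 0.0327, edgeR), and Hpgd was the 1 member of 10 that passed, where 9.64% of genes did (7.70% by edgeR). The call was lost without LXR-positive replicate 1 or 2 or any of the 3 DKO libraries given GW3965 (adjusted p up to 0.114).

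With AcLDL the difference had the same size. Hpgd had 809, 692 and 1223 normalized counts in DKO cells, against 2081, 3162.5 and 1323 in LXR-positive cells, again without overlap, as for 16.1% of genes in that direction. The log2 difference was -1.22 ± 0.35 (adjusted p = 0.0525, limma), just outside the threshold, and 0 of 10 members passed, where 8.60% of genes did. With the mouse as a random block it passed (adjusted p = 0.0399, limma), as it did in DESeq2 (0.00347). Here 2 members had an unadjusted p under 0.05 (26.2% of genes), edgeR called 0 (7.42%) and DESeq2 called 2. With vehicle the groups overlapped, and the log2 difference was -0.51 ± 0.31 (adjusted p = 0.527, limma). For vehicle 0 of 10 members passed, where 0.316% of genes did; 0 had an unadjusted p under 0.05 (12.2% of genes) and edgeR and DESeq2 called 0.

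The mice differed among themselves in Hpgd. LXR-positive mouse 2 was the highest and mouse 3 the lowest of their genotype in 3 of 3 groups without KLA, at 3203 and 1235 with vehicle. DKO mouse 2 was the lowest of its genotype in 3 of 3. In each DKO mouse Hpgd was lower with GW3965 and with AcLDL than with vehicle, with log2 ratios of -0.55, -0.73 and -0.50 for GW3965 and -0.86, -0.93 and -0.18 for AcLDL. In the LXR-positive mice the ratios were 0.20, -0.05 and 0.21 for GW3965 and 0.08, -0.02 and 0.10 for AcLDL. The difference between genotypes in these responses did not pass (log2 -0.71 ± 0.44 for GW3965, adjusted p = 0.992; -0.71 ± 0.50 for AcLDL, adjusted p = 1, limma). With the mouse as a block the SE was 0.14 for GW3965 and 0.20 for AcLDL, and neither passed (adjusted p = 0.205 and 0.929, limma).

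Hpgds values were also lower in DKO cells in the treatments other than KLA, without passing in limma. With GW3965 it had 4539.5, 4189.9 and 4042 normalized counts in DKO cells, against 5169, 4989 and 5332 in LXR-positive cells. With AcLDL it had 4599, 4224 and 4638 in DKO cells, against 5253.5, 5009 and 6089.6 in LXR-positive cells. DKO and LXR-positive libraries did not overlap in either treatment, nor with vehicle, where 10.1% of genes were separated in that direction. The log2 difference was -0.28 ± 0.08 with GW3965 (adjusted p = 0.0507, limma; 0.0486 with the mouse as a random block) and -0.28 ± 0.09 with AcLDL (adjusted p = 0.0807, limma). DESeq2 called it in both, at adjusted p = 0.00847 and 0.0286, where DESeq2 called 13.1% and 13.5% of genes and the blocked fit 9.46% and 8.49%.

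Markers of other cells differed between the genotypes beside these results. With GW3965 the 8 stromal markers summed to 1435 to 7508 normalized counts in DKO cells, against 209 to 781 in LXR-positive cells, and the 7 lymphocyte markers to 318 to 995 against 30.3 to 42.7 (65.9 to 89.0 against 25.1 to 36.6 without Igkc). Neutrophil markers summed to 7770.5 to 11349 in DKO cells, against 3657 to 6370 in LXR-positive cells. The 8 macrophage markers summed to 187941 to 248496 in DKO cells, against 260600 to 298847 in LXR-positive cells, and most of that sum was Lyz2. Without Lyz2 the sums were 66326 to 87422 against 87439.5 to 90157, and the markers did not all go 1 way: Cd68 was higher, at 6547 to 7326 in DKO cells against 4205 to 5486 in LXR-positive cells, and Fcgr1 overlapped. Platelet markers summed to 295 to 662 against 205 to 279, and dendritic markers to 578 to 1279.7 against 209 to 403. The dendritic gap was that of Itgax, a gene macrophages also express, since the other 6 markers summed to 78.5 to 95.9 against 78.4 to 106. With AcLDL and with vehicle, the stromal and platelet sums overlapped between genotypes (stromal 227 to 4264 in DKO against 148 to 1075 in LXR-positive cells with AcLDL, and 246 to 3691 against 79.4 to 842 with vehicle). The neutrophil sums did not overlap there, at 5997 to 8489 in DKO against 3096 to 3596 in LXR-positive cells with AcLDL and 6237 to 8898 against 4226 to 4649 with vehicle. Macrophage sums with AcLDL were 137015 to 179193 in DKO against 218088 to 253086 in LXR-positive cells. With vehicle they were 172238 to 206568 against 221106 to 295533, so they did not overlap in either treatment. Without Lyz2 they overlapped with AcLDL, at 55962 to 71418 against 68089.5 to 78250. With vehicle they stayed apart, at 65073 to 80744 against 83240 to 96788.5. Cd3e was at 0 in 11 of 24 libraries and Lum in 10. The part of these cells in the Hpgd and Hpgds differences was not tested.

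**Figure D4:**
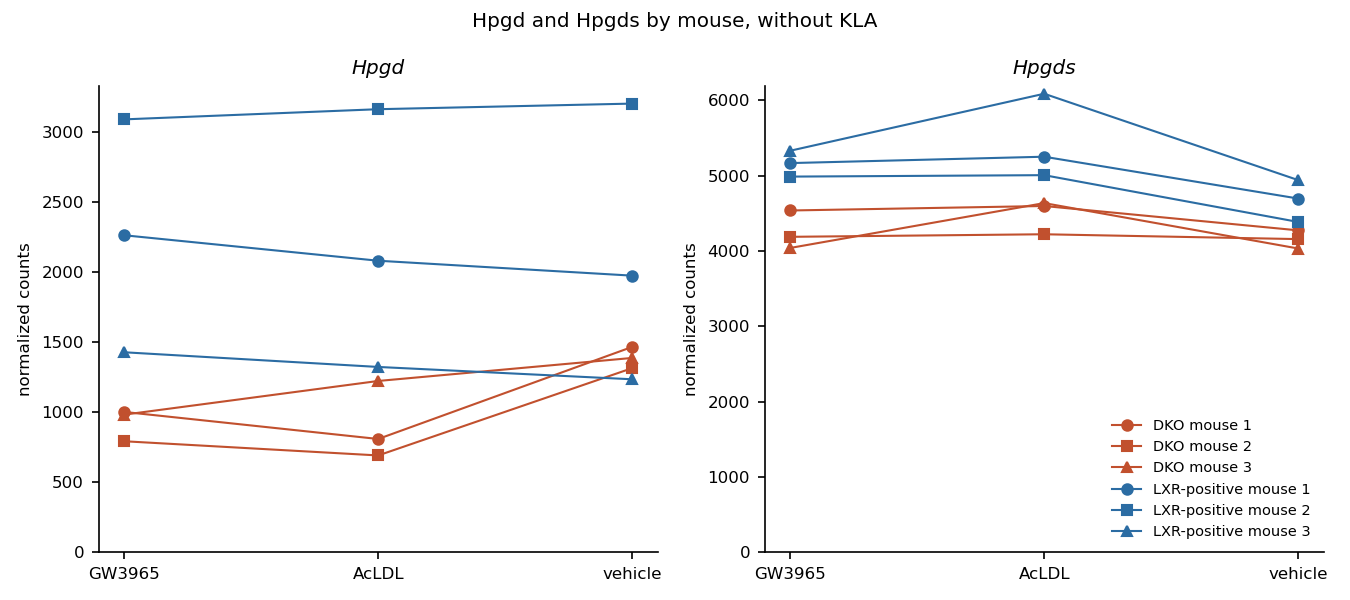
Normalized counts of Hpgd and Hpgds by mouse in the 3 treatments without KLA; each line joins the libraries of 1 mouse (taken from the replicate number). The 3 DKO lines for Hpgd lie below the 3 LXR-positive lines with GW3965 and AcLDL and overlap them with vehicle, where LXR-positive mouse 3 had 1235.

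The order of the 8 groups by mean level followed KLA for most members. For Ptgs2 it ran from 979 in LXR-positive cells with KLA and 862 in DKO cells with KLA to 37.2 in DKO cells with GW3965, and the remaining groups fell to 16.3 in LXR-positive cells with GW3965. Only the step from 862 to 37.2 separated neighbouring groups without overlap. For Hpgd the order ran from the LXR-positive groups with GW3965 (2260.4), AcLDL (2189) and vehicle (2138) to DKO with vehicle (1390), GW3965 (926) and AcLDL (908). KLA came last, with 11.8 in LXR-positive and 9.73 in DKO cells, and the steps from 1390 to 926 and from 908 to 11.8 were without overlap. The step from 1390 to 926, from vehicle to GW3965 in DKO cells, did not pass the test (adjusted p = 0.885, limma). In that comparison 7.16% of genes were separated in the same direction. For Ptger2, Ptger4, Alox5 and Alox5ap every group overlapped its neighbour in the order. Ptger2 group means spanned 106 to 160.3, Ptger4 means 365 to 622, Alox5 means 31.2 to 78.6 and Alox5ap means 1903 to 2965.

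Genes whose pattern over the 8 group means was most like a member's were found among 10732 genes, as the smallest root mean square difference of centred log2 means. For Ptgs2 these were Gbp6 (0.33), Adgb (0.33) and Socs3 (0.33). For Hpgd they were Slco2b1 (0.72), Abca6 (0.72) and Gprc5c (0.73), the largest distances among the 4 members searched. Distances are not scaled by how far a gene moves between groups, so those of different members cannot be compared as likeness. For Ptger4 they were Gm14117 (0.09), Fam195b (0.10) and Gm37494 (0.12), and for Alox5 they were Serinc5, Rubcnl and Galc (0.08, 0.09 and 0.09).

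Among 53 other eicosanoid genes listed with the pathway, 35 passed the filter in the KLA tables. In DKO cells 7 rose and 5 fell (12 of 35), and in LXR-positive cells 7 rose and 8 fell (15 of 35), beside the 25.2% and 28.6% of all genes. The medians over the 35 were log2 differences of 0.004 in DKO and -0.11 in LXR-positive cells. The difference between genotypes in the KLA response passed for 0 of the 35 (limma, edgeR and DESeq2). At an unadjusted p under 0.05 (limma) there were 2, beside 5.36% of all genes. A call in 1 genotype only is thus not a shown difference in response. Of arachidonate release, 10 of 14 genes were tested. There Pla2g4a, the cytosolic phospholipase A2 that feeds the pathway, averaged 601 ± 45.8 normalized counts in DKO cells with KLA, against 281 ± 94.8 with vehicle (SD, n = 3 each). In LXR-positive cells it averaged 935 ± 536 with KLA, against 304 ± 68.6 with vehicle. Its log2 differences were 1.15 ± 0.34 in DKO (adjusted p = 0.0285, limma) and 1.49 ± 0.34 in LXR-positive cells (adjusted p = 0.0063, limma). Pla2g12a rose and Pla2g15 and Daglb fell in both genotypes, and Pla2g6 was called higher in LXR-positive cells.

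Mgll, the monoacylglycerol lipase that frees arachidonate from an endocannabinoid, was low, at 1.91 ± 1.60 in DKO cells with KLA, against 19.3 ± 9.19 with vehicle, and 4.55 ± 7.89 in LXR-positive cells with KLA, against 14.3 ± 2.51 with vehicle. Its log2 differences of -2.85 ± 0.90 (DKO, adjusted p = 0.0364, limma) and -2.63 ± 0.90 (LXR-positive, adjusted p = 0.0452, limma) passed, but edgeR did not call it in LXR-positive cells (adjusted p = 0.223). Daglb, a diacylglycerol lipase, averaged 675 ± 36.9 in DKO cells with KLA, against 2085 ± 418 with vehicle (log2 -1.61 ± 0.18, adjusted p = 4.25e-05, limma).

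In prostaglandin synthesis, 6 of 8 genes were tested, and the prostaglandin E synthases Ptges2 and Ptges3 rose in both genotypes, Fam213b in DKO cells. Of transport and breakdown, Abcc4, which exports prostaglandins, was the 1 of 5 that passed. It averaged 1065 ± 113 in DKO cells with KLA, against 329 ± 18.2 with vehicle, and 1306 ± 93.9 in LXR-positive cells with KLA, against 369 ± 6.22 with vehicle. The log2 difference of Abcc4 was 1.69 ± 0.10 in DKO (adjusted p = 6.42e-07, limma) and 1.82 ± 0.10 in LXR-positive cells (adjusted p = 2.99e-07, limma).

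Of 7 further prostanoid receptors, 3 were tested. Ptgir, the prostacyclin receptor, averaged 345 ± 82.3 in DKO cells with KLA, against 106 ± 29.6 with vehicle, and 430.5 ± 152 in LXR-positive cells with KLA, against 107 ± 7.71 with vehicle (log2 1.70 ± 0.28 and 1.93 ± 0.28, adjusted p = 0.000889 and 0.000314, limma). Ptger3, the EP3 receptor, was low and passed in LXR-positive cells, at 2.74 ± 2.62 with KLA against 22.2 ± 9.81 with vehicle (log2 -2.91 ± 0.68, adjusted p = 0.007, limma). In DKO cells Ptger3 was 4.20 ± 2.81 with KLA and 8.73 ± 3.67 with vehicle, which did not pass. Nor did the difference between genotypes in its KLA response pass. Of leukotriene synthesis and breakdown, 6 of 9 genes were tested: Dpep2, a dipeptidase acting on leukotriene D4, and Cyp4f18, which oxidises leukotriene B4, fell in both genotypes, and Ggt5 in LXR-positive cells. Ggt5, which converts leukotriene C4, averaged 5.13 ± 2.47 with KLA against 37.1 ± 9.96 with vehicle (log2 -2.68 ± 0.69, adjusted p = 0.0119, limma). Ltc4s, the leukotriene C4 synthase, reached at most 10.7 normalized counts and was at 0 in 11 of 24 libraries.

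**Figure D5:**
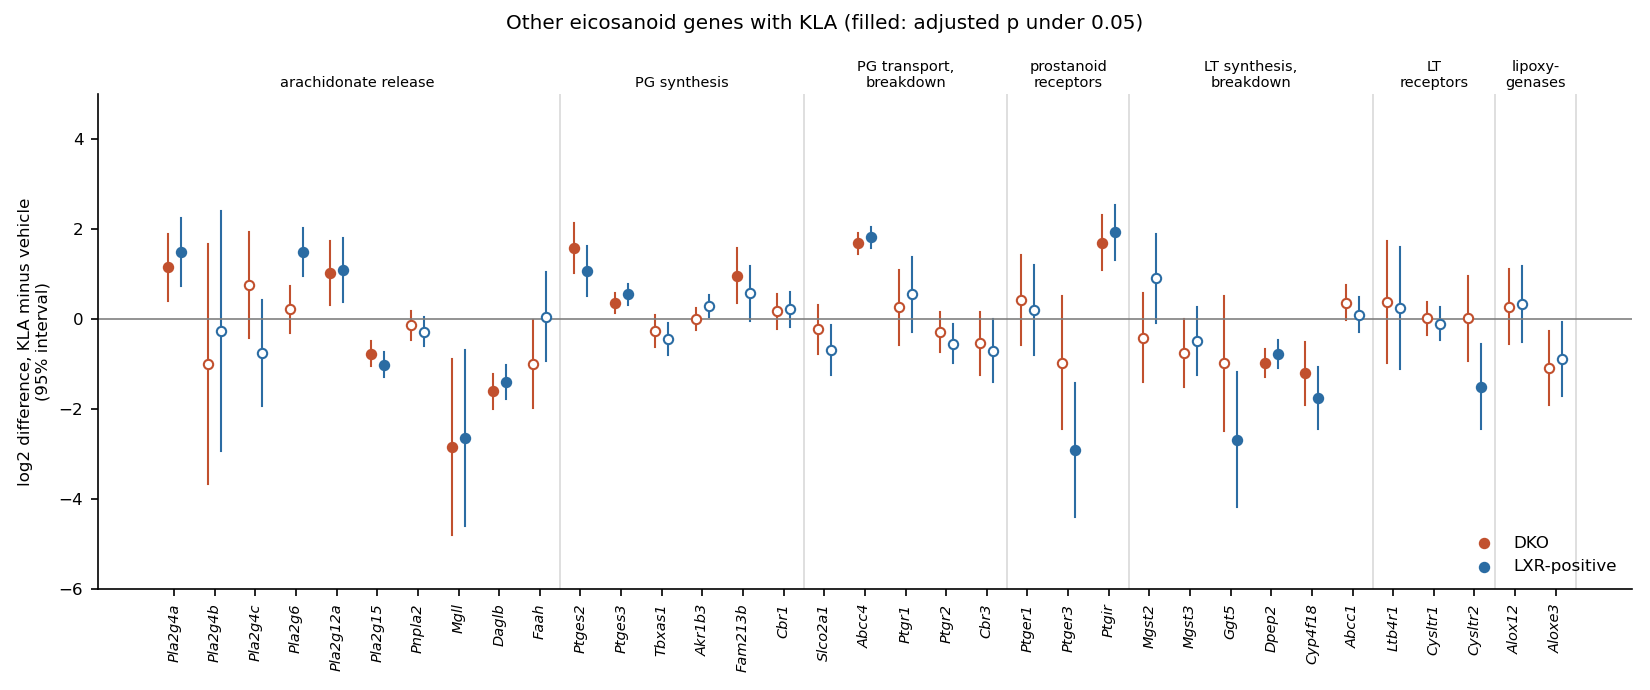
Log2 difference of KLA minus vehicle (y axis, 95% intervals) for the 35 other eicosanoid genes tested, grouped by role, DKO left of LXR-positive; filled points passed an adjusted p of 0.05. Abcc4 and Ptgir lie near 1.7 to 1.9 in both genotypes, and the filled points farthest below 0 are Ptger3, Ggt5 and Mgll.

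With GW3965 and AcLDL 0 of the other pathway genes passed in either genotype (limma, edgeR and DESeq2). At an unadjusted p under 0.05 there were 2 of 37 with GW3965 in DKO and 1 in LXR-positive cells, and 0 of 36 with AcLDL in DKO and 4 in LXR-positive cells, beside the 5.83%, 6.13%, 6.26% and 12.3% of all genes. Between genotypes, the calls by limma and edgeR were of leukotriene receptors. Cysltr1 was lower in DKO cells with GW3965, at 859 ± 117 against 1297 ± 251 in LXR-positive cells (log2 -0.59 ± 0.15, adjusted p = 0.0336, limma). With AcLDL, Cysltr1 was 848 ± 148 in DKO and 1339 ± 236 in LXR-positive cells (log2 -0.66 ± 0.15, adjusted p = 0.0253, limma). Cysltr2 was higher in DKO cells with KLA, at 29.8 ± 5.33 against 8.31 ± 7.07 in LXR-positive cells (log2 1.97 ± 0.44, adjusted p = 0.0238, limma). These were 1 of 37, 1 of 36 and 1 of 35 tested genes, below the background shares of 9.64%, 8.60% and 6.87%. DESeq2 also called Akr1b3 with KLA and GW3965 (adjusted p = 0.0463 and 0.0415) and Ptges3 with KLA and AcLDL (0.0444 and 0.044), all lower in DKO cells, where it called 12.0% of genes with KLA.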

How the data were processed

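Libraries were made from 500 ng of total RNA of individual mice with a stranded total RNA kit and sequenced as single-end 50 bp reads, per the labels' protocols. The submitters' processing notes name kallisto, DESeq2 and the GRCm38 build, without versions, annotation or strand setting. The authors deposited 3 tables (KLA, GW3965 and AcLDL, each with the same vehicle libraries) that hold normalized counts, a signal in which each library's gene counts are divided by its size factor. All 24 libraries gave 100% whole values within 0.01 read, so whole counts per gene were recovered, which are called reads here. They come from kallisto and may be rounded estimates. The tables also hold the authors' log2 fold changes with their standard errors, a test score, and p-values for the genotype difference in response.

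From these, limma-trend (limma 3.58.1, R 4.3.3) was fitted to log2(normalized count + 1) over the 12 libraries of a table, with 4 group means and a shared spread. Genes needed at least 10 normalized counts in at least 3 libraries, p-values were adjusted by Benjamini-Hochberg over all genes tested, and calls were made at 0.05. Vehicle genotypes were compared with the GW3965 libraries in the fit. Recovered reads were tested with edgeR 4.0.16 and DESeq2 1.42.0 as alternatives, which for KLA in LXR-positive cells called 4401 and 4704 genes, against 4566 by limma. Other alternatives were TMM scaling, no filter, a pseudocount of 8, all 24 libraries, the mouse as a block, and leaving out each library. The limma fit for KLA in LXR-positive cells, with and without the mouse as a block, was tested on simulated data. The other fits were not tested in this way.

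The design text gives 6 mice and 4 treatments, so each mouse gave 4 libraries, and libraries of a genotype with the same number were taken as 1 mouse. Deviations from group means of same-numbered libraries had a median correlation of 0.27 (-0.005 to 0.51 over 36 pairs, 35 above 0.1, 10732 genes). P-values of the main fits measure the spread between libraries of a group, and treat the 12 libraries as independent although mice are shared. For genotype comparisons, the fit with the mouse as a block used a correlation shared by all genes, not that of each gene. Total reads set counting error only.

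The members, the other gene lists, the motifs and the tests were chosen with earlier results of these data known. Named were all members, up to 4 other pathway genes called per comparison with the largest differences, the 3 genes most like Ptgs2, Hpgd, Ptger4 and Alox5, and further pathway genes for their role, chosen after their values were seen. A lymphocyte marker is not reported here and was left out of the summed markers.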

Additional observations from a re-analysis of the deposited data

How the results depend on the processing

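Across 10 members, 13 comparisons and 7 alternatives, 900 of the values kept their side of the threshold, 7 newly passed and 3 no longer passed. Of the values called in either fit, 0 changed direction. Changes of sign among values called in neither fit were not counted. The counts of called members moved in the genotype comparisons. With GW3965, 1 member was called, against 2 in DESeq2, 2 with the replicate block of the mouse, and 0 to 2 on leaving out 1 library. With AcLDL, 0 members were called, against 1 with a pseudocount of 8, 2 in DESeq2, 1 with the replicate block, and 0 to 1 on leaving out 1 library. The calls gained were of Hpgd and Hpgds between genotypes and of Alox5ap with KLA in LXR-positive cells (all 24 libraries), and the cause was not tested. For KLA the count was 6 on leaving out any library in LXR-positive cells (7 with all) and 6 in DKO cells (6 with all). The replicate block changed the call of Lta4h with KLA in LXR-positive cells, of Hpgds with GW3965 and of Hpgd with AcLDL between genotypes, and no other member's call. Over all genes it moved the count for AcLDL in LXR-positive cells to 247, against 36 without it, and in DKO cells to 38, against 20. DESeq2 called 304 genes between genotypes with vehicle, against 51 by limma and 46 by edgeR. TMM scaling shifted the median of all genes by at most 0.03 on the log2 scale. Low reads limit Ptges and Ptgs2 without KLA, Hpgd with it, and Alox5 in both (16 to 45 reads with KLA and 21 to 148 without).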
